A study of Arabidopsis thaliana with 12 samples.

Results

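The 9 Arabidopsis ATG8 genes, ATG8a to ATG8i, and NBR1 were followed through a shoot RNA-seq experiment on sulfur starvation. These 10 genes were taken by locus from a table of 32833 loci. No measured value entered the rule, but the members were chosen with earlier results of these data known. The loci are AT4G21980 (ATG8a), AT4G04620 (ATG8b), AT1G62040 (ATG8c), AT2G05630 (ATG8d), AT2G45170 (ATG8e), AT4G16520 (ATG8f), AT3G60640 (ATG8g), AT3G06420 (ATG8h), AT3G15580 (ATG8i) and AT4G24690 (NBR1). Autophagy carries cytoplasm to the vacuole for breakdown and is a main route of nutrient recycling in starved or senescing leaves. ATG8 proteins are small ubiquitin-fold proteins that are joined to a lipid of the growing autophagosome membrane through a C-terminal glycine. The protease ATG4 first exposes that glycine, the activating enzyme ATG7 and the conjugating enzyme ATG3 pass ATG8 on, and the complex of ATG12, ATG5 and ATG16 places it on the lipid. On the membrane, ATG8 is the docking point for cargo receptors such as NBR1, which binds ubiquitinated cargo and is itself broken down in the vacuole with it.

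Total RNA came from the shoots of 10-day-old plate-grown seedlings, cut from the root with a blade. Plants were Col-0, the laboratory wild type, or cdk8-1, a mutant of CDK8, the kinase of the Mediator complex of transcription. Plates held either 1.5 mM magnesium sulfate or 0 mM, magnesium chloride having taken its place, so that sulfur-deprived plates also differed in chloride. The groups were Col-0 with sulfate, Col-0 without sulfate, cdk8-1 with sulfate and cdk8-1 without sulfate, each with 3 libraries. The labels name 1 cdk8 allele and do not say whether replicates came from separate plates or pools, so each p-value here covers only how these particular libraries scatter, which may be technical. Fewer cells of a type and less RNA per cell cannot be told apart in such bulk samples.

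The libraries held 17441215 to 25175871 reads in the genes whose reads could be recovered from the table, and the members had between 90 reads (ATG8g in its lowest library) and 28729 reads (NBR1 in its highest). CDK8 transcript, the check of the genotype label, averaged 22.8 TPM ± 1.71 (SD, n = 3) in Col-0 with sulfate and 3.99 TPM ± 1.02 (SD, n = 3) in cdk8-1 with sulfate, and 33.2 TPM ± 0.451 (SD, n = 3) against 5.49 TPM ± 0.514 (SD, n = 3) without sulfate. TPM are reads per exon length scaled to 1000000 per library, so levels can be set side by side between genes. The summed TPM of 5 green-shoot markers (RBCS1A, CA1, RCA, LHCA1, PSAD1) was 37318 to 39228 in Col-0 with sulfate, 2126 to 2174 in Col-0 without, 39815 to 39934 in cdk8-1 with sulfate and 5165 to 6215 in cdk8-1 without. Of 5 root markers, EXPA7, COBL9, CASP1 and CASP2 were low, with a highest value of 12.9 TPM (CASP1 in a cdk8-1 library without sulfate). PYK10, a beta-glucosidase, made up nearly all of that list's sum, which was 680 to 819, 306 to 345, 914 to 1229 and 648 to 1032 TPM in the same order of groups.

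The ATG8 genes differ in what follows the glycine to which the lipid is joined. The 3' ends of the ATG8 coding sequences are shown here because the codon of the C-terminal glycine, in capitals, sets whether ATG4 has anything to remove before conjugation. They were read from the RefSeq annotation of the TAIR10.1 genome, run 5' to 3' on the coding strand, begin 9 codons before the glycine and end with the stop codon.
ATG8a: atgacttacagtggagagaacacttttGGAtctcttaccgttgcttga
ATG8b: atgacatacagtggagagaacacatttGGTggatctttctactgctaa
ATG8c: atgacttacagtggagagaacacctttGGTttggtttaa
ATG8d: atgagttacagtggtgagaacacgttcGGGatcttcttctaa
ATG8e: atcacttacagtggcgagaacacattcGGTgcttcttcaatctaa
ATG8f: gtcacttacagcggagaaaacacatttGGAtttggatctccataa
ATG8g: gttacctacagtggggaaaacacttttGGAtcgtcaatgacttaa
ATG8h: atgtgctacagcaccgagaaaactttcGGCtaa
ATG8i: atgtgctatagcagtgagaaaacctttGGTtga
These stretches lie at chr4:11656762-11656809 (plus strand) for ATG8a, chr4:2328663-2328710 (minus) for ATG8b, chr1:22934215-22934253 (plus) for ATG8c, chr2:2083211-2083252 (minus) for ATG8d and chr2:18625482-18625526 (plus) for ATG8e. ATG8f lies at chr4:9306882-9306926 (minus), ATG8g at chr3:22416927-22416971 (plus), ATG8h at chr3:1955219-1955251 (minus) and ATG8i at chr3:5274075-5274107 (minus). Each stretch lies within a single coding exon.

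In ATG8a to ATG8g, 2 to 5 codons follow the glycine codon, and they differ from gene to gene. In ATG8h and ATG8i the stop codon follows the glycine directly, so that their proteins end on it as made. ATG8h and ATG8i are known as a class of their own in plants for this reason. Aligned end to end, the coding sequences of ATG8a to ATG8g were 68.9% to 86.3% identical over their 21 pairs (median 73.8%). ATG8h and ATG8i shared 68.4% of bases with each other and 58.3% to 68.9% with the other seven genes (14 pairs, median 63.4%). The closest pair was ATG8a with ATG8b, and no run of 50 bases from the exons of any member was found elsewhere in the genome. The read length is not given in the sources used here.

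ATG8 levels with sulfate formed a steep order in Col-0. ATG8e (119.6 TPM ± 32.6, SD, n = 3) and ATG8f (118 TPM ± 7.87, SD, n = 3) led, and their ranges overlapped. Below them, and clear of both, came ATG8i (56.3 TPM ± 4.27), followed by ATG8a (30.4 TPM ± 3.21) and ATG8c (24.8 TPM ± 2.03), whose ranges did not overlap with ATG8i. ATG8a and ATG8c did overlap with each other in their spread of 26.9 to 33.1 and 23.4 to 27.2 TPM. ATG8h (13.4 TPM ± 1.64), ATG8d (10.7 TPM ± 0.120), ATG8b (10.6 TPM ± 2.18) and ATG8g (7.41 TPM ± 0.946) were lowest, and the range of ATG8b overlapped those of ATG8h, ATG8d and ATG8g. In cdk8-1 with sulfate the order was the same except that ATG8b (14.4 TPM ± 0.762) stood above ATG8d (11.6 TPM ± 1.73).

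**Figure D1:**
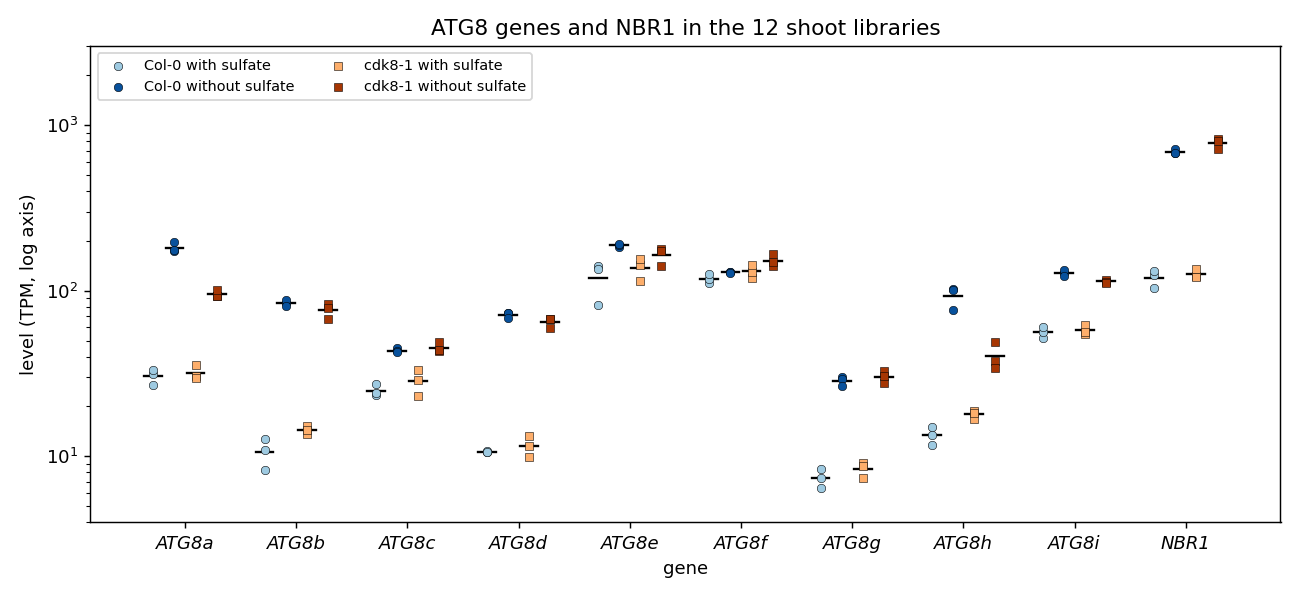
Level of each ATG8 gene and of NBR1 in TPM (log axis) in the 12 libraries. Points are single libraries, bars are means of 3, circles are Col-0, squares are cdk8-1 and dark fill marks plates without sulfate. Without sulfate, ATG8a and ATG8h lie lower in cdk8-1 (95.4 and 40.2 TPM on average) than in Col-0 (182 and 93.3 TPM), while ATG8g and ATG8c of the genotypes overlap.

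The first comparison asked how the shoots of wild-type plants differed when sulfate was withheld. ATG8a, ATG8b, ATG8d, ATG8h and NBR1 were about 6 to 8 times as high without sulfate, ATG8g about 4 times and ATG8i about 2 times. ATG8c and ATG8e were higher by less, and ATG8f, an abundant member with sulfate, hardly differed. Of the 10 members 9 were higher and 0 were lower at an adjusted p under 0.05 (limma on log2(TPM + 1), Benjamini-Hochberg over 19127 genes). Read that count against the whole table, where 56.1% of genes were higher and 28.8% lower (84.9% in all). The median log2 change of the members was 2.17, and that of all genes tested was 0.46. After the libraries were scaled by the median of ratios, 41.3% of genes were higher and 39.6% lower (80.9% in all), with 8 members higher and 1 lower.

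That median of 0.46 is a shift of the whole table. Each log2 change between sulfate levels is therefore given as fitted and then relative to the median gene of the same comparison, whose value in cdk8-1 was 0.45. All 10 members had ranges that did not overlap between Col-0 with and without sulfate, as did 85.5% of the genes tested.

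NBR1 was the most abundant member of the set without sulfate. In Col-0 it measured 104, 124 and 131 TPM in the libraries with sulfate and 677, 716 and 676 TPM in those without. Every library without sulfate was above every library with it by a wide margin. The log2 change was 2.52 ± 0.08 (SE, limma adjusted p = 2.24e-11), or 2.07 relative to the median gene.

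ATG8a measured 26.9, 31.4 and 33.1 TPM in Col-0 with sulfate and 173, 197 and 175 TPM without. ATG8b, the closest relative of ATG8a in sequence, measured 8.31, 11 and 12.6 TPM and then 83.7, 88.0 and 80.8 TPM. Both sets of libraries stood far apart. The log2 change of ATG8a was 2.54 ± 0.09 (SE, limma adjusted p = 3.87e-11) and that of ATG8b was 2.89 ± 0.12 (SE, limma adjusted p = 1.57e-10), or 2.08 and 2.43 relative to the median gene. ATG8b went from 2.7% of all ATG8 TPM to 8.89%.

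ATG8d was tight among replicates, at 10.5, 10.8 and 10.7 TPM with sulfate and 73.1, 72.8 and 68.4 TPM without. ATG8h, of the class without codons past the glycine, measured 11.7, 15 and 13.4 TPM with sulfate and 76.8, 102 and 101 TPM without. Neither gene had overlapping groups, though the first ATG8h library without sulfate lay below the others. Their log2 changes were 2.63 ± 0.09 (SE, limma adjusted p = 3.51e-11) and 2.71 ± 0.14 (SE, limma adjusted p = 1.14e-09), which are 2.17 and 2.25 relative to the median gene. ATG8i, the other member of that class, measured 52.1, 56.3 and 60.6 TPM with sulfate and 127, 134 and 123 TPM without. Its log2 change of 1.17 ± 0.07 (SE, limma adjusted p = 3.46e-09), 0.71 relative to the median gene, was well below that of ATG8h.

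ATG8g, the least abundant member, measured 6.46, 7.41 and 8.35 TPM with sulfate and 30.1, 29.2 and 26.4 TPM without, a log2 change of 1.82 ± 0.11 (SE, limma adjusted p = 4.31e-09) and 1.36 relative to the median gene. ATG8c measured 23.4, 24.0 and 27.2 TPM and then 44.8, 43.0 and 42.4 TPM. The groups of ATG8c did not overlap, and its log2 change of 0.78 ± 0.11 (SE, limma adjusted p = 1.98e-05) came to 0.33 relative to the median gene.

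Among the ATG8 genes, those that led with sulfate responded least. NBR1, at a similar level in Col-0 with sulfate (104 to 131 TPM), had a log2 change of 2.52. ATG8e measured 82.1, 141 and 135 TPM in Col-0 with sulfate and 182, 189 and 192 TPM without, and the first library with sulfate was well below the other two. The log2 change of ATG8e was 0.69 ± 0.18 (SE, limma adjusted p = 0.00295) but 0.23 relative to the median gene, and after scaling it was 0.21 with an adjusted p of 0.289 in limma. ATG8f measured 111, 118 and 126 TPM with sulfate and 130.1, 129.7 and 127 TPM without, groups that nearly touch. Its log2 change was 0.12 ± 0.08 (SE, limma adjusted p = 0.144), which is -0.33 relative to the median gene, and after scaling it was lower, at -0.35 ± 0.08 (SE, limma adjusted p = 0.000855).

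**Figure D2:**
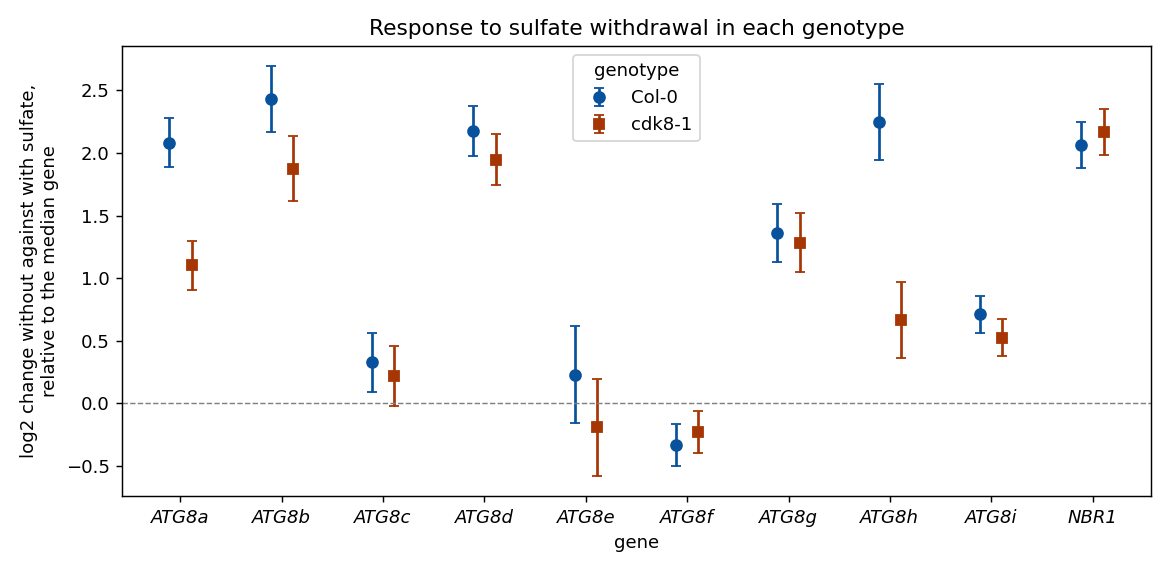
Log2 change of each member without against with sulfate, after subtracting the median of all genes tested (0.46 in Col-0 and 0.45 in cdk8-1), with 95% confidence intervals from limma. Circles are Col-0 and squares are cdk8-1, each from 3 libraries a group. ATG8a (2.08 and 1.10) and ATG8h (2.25 and 0.66) differ most between genotypes, and ATG8f lies below 0 in both (-0.33 and -0.23).

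In cdk8-1, sulfate withdrawal was likewise followed by higher levels of most members. Of the 10 members 9 were higher and 0 lower, against 56.9% and 24.7% of all genes (81.6% in all), and the members' median log2 change was 1.33 beside 0.45 for all genes. After scaling, 7 members were higher and 1 was lower, against 38.5% and 37.3% of all genes (75.8% in all). Ranges did not overlap for 8 of the 10 members, as for 82.6% of all genes, and the exceptions were ATG8e and ATG8f.

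NBR1 in cdk8-1 measured 122, 122 and 135 TPM with sulfate and 719, 826 and 795 TPM without. The groups lay as far from overlapping as in Col-0, with a log2 change of 2.62 ± 0.08 (SE, limma adjusted p = 3.88e-11), or 2.17 relative to the median gene. ATG8a measured 30.6, 29.7 and 35.8 TPM with sulfate and 92.5, 92.6 and 101 TPM without. All 3 libraries without sulfate were higher, and the log2 change was 1.55 ± 0.09 (SE, limma adjusted p = 5.94e-09), or 1.10 relative to the median gene. ATG8h measured 18.8, 16.7 and 18.2 TPM and then 37.7, 34.1 and 48.8 TPM, a separation of about 2 times with 1 library above the rest. The log2 change of ATG8h was 1.11 ± 0.14 (SE, limma adjusted p = 8.69e-06), or 0.66 relative to the median gene.

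Among the remaining responders in cdk8-1, ATG8b measured 15.2, 13.6 and 14.5 TPM with sulfate and 67.6, 82.9 and 78.8 TPM without. ATG8d measured 9.87, 11.5 and 13.3 TPM and then 59.3, 67.7 and 67.5 TPM. ATG8g measured 7.37, 9.14 and 8.78 TPM and then 27.6, 32.8 and 30.3 TPM. These 3 genes kept wide gaps between the groups, with log2 changes of 2.32 ± 0.12, 2.39 ± 0.09 and 1.73 ± 0.11 (SE) and 1.87, 1.95 and 1.28 relative to the median gene. ATG8i went from 54.5, 62.2 and 56.1 TPM to 116, 113 and 111 TPM, a log2 change of 0.97 ± 0.07 (SE) and 0.52 relative to the median gene. The highest limma adjusted p of these 4 genes was that of ATG8i, 3.18e-08.

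ATG8c measured 23.1, 28.9 and 33.2 TPM in cdk8-1 with sulfate and 43.0, 48.8 and 43.8 TPM without. Its log2 change of 0.67 ± 0.11 (SE, limma adjusted p = 9.83e-05) was 0.22 relative to the median gene and did not pass after scaling (0.21, limma adjusted p = 0.106). ATG8e measured 115, 143 and 155 TPM and then 140.1, 177 and 174 TPM, with overlapping groups and a log2 change of 0.25 ± 0.18 (SE, limma adjusted p = 0.203), or -0.21 after scaling (limma adjusted p = 0.285). ATG8f measured 119, 130.4 and 142 TPM and then 141, 165 and 148 TPM, where the highest library with sulfate lay above the lowest without. The log2 change of ATG8f was 0.21 ± 0.08 (SE, limma adjusted p = 0.0204). Relative to the median gene it was -0.23, and after scaling it was lower at -0.25 ± 0.08 (SE, limma adjusted p = 0.00902). It did not pass without replicate 1 of cdk8-1 with sulfate (0.15, limma adjusted p = 0.0960) or without replicate 2 of cdk8-1 without sulfate (0.15, limma adjusted p = 0.0971).

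With sulfate, the fitted log2 difference between the genotypes was 0.42 or less for every member. In cdk8-1 relative to Col-0, 1 of 10 members was higher and 0 were lower, against 8.85% and 4.84% of all genes (13.7% in all), with a median log2 difference of 0.15 for the members and 0.07 for all genes. The member that passed was ATG8b, at 8.31 to 12.6 TPM in Col-0 and 13.6 to 15.2 TPM in cdk8-1, a log2 difference of 0.42 ± 0.12 (SE, limma adjusted p = 0.0361). After scaling, 0 members were higher and 0 lower, against 4.38% and 6.51% of all genes (10.9% in all). ATG8b then had an adjusted p of 0.0720 in limma, and it did not pass either on leaving out any library of cdk8-1 with sulfate, or replicate 1 or 2 of Col-0 with sulfate (limma adjusted p from 0.0611 to 0.0982). ATG8h did not overlap either, at 11.7 to 15 against 16.7 to 18.8 TPM, with a log2 difference of 0.40 ± 0.14 (SE, limma adjusted p = 0.0774). These 2 of 10 members without overlap compare with 30.4% of all genes. For NBR1 the 95% interval of the log2 difference ran from -0.10 to 0.27, and for ATG8a from -0.13 to 0.27. Other intervals reached further, from 0.16 to 0.69 for ATG8b, 0.10 to 0.70 for ATG8h and -0.15 to 0.62 for ATG8e.

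Without sulfate, ATG8a and ATG8h were lower in cdk8-1 than in Col-0, and the other members differed by less. ATG8a was at 173 to 197 TPM in Col-0 and 92.5 to 101 TPM in cdk8-1, and ATG8h at 76.8 to 102 TPM and 34.1 to 48.8 TPM. No cdk8-1 library of either gene reached the lowest Col-0 library. The log2 difference was -0.92 ± 0.09 for ATG8a (SE, limma adjusted p = 6.05e-06) and -1.20 ± 0.14 for ATG8h (SE, limma adjusted p = 2.48e-05), mean levels being 0.525 and 0.431 times those of Col-0. In this comparison 2 members were lower and 1 was higher, against 15.0% lower and 26.3% higher among all genes (41.3% in all). The members' median log2 difference was -0.14 and that of all genes 0.08. After scaling, 3 members were lower and 0 higher, against 18.4% and 21.4% of all genes (39.8% in all).

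The member that was higher was ATG8f, at 127 to 130.1 TPM in Col-0 and 141 to 165 TPM in cdk8-1. Its log2 difference of 0.23 ± 0.08 (SE, limma adjusted p = 0.0306) did not pass after scaling (0.16, limma adjusted p = 0.110) or without any library of Col-0 without sulfate or replicate 2 or 3 of cdk8-1 without sulfate (limma adjusted p from 0.0549 to 0.129). ATG8i was the third lower member after scaling, at -0.23 (limma adjusted p = 0.0180). As deposited it was at 123 to 134 TPM in Col-0 and 111 to 116 TPM in cdk8-1, a log2 difference of -0.17 ± 0.07 (SE, limma adjusted p = 0.0659). NBR1 was at 676 to 716 TPM in Col-0 and 719 to 826 TPM in cdk8-1, groups that did not overlap, with a log2 difference of 0.18 ± 0.08 (SE, limma adjusted p = 0.119) and a 95% interval from -0.01 to 0.36. In all, 7 of 10 members did not overlap between the genotypes, as did 57.1% of all genes. The sulfate and genotype comparisons share libraries, so they are not independent of each other.

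The difference of the sulfate responses was itself tested. The response of ATG8h was smaller in cdk8-1 by 1.60 on the log2 scale (interaction -1.60 ± 0.20, SE, limma adjusted p = 9.67e-05), that of ATG8a by 0.99 (-0.99 ± 0.13, SE, limma adjusted p = 0.000131) and that of ATG8b by 0.57 (-0.57 ± 0.17, SE, limma adjusted p = 0.0272). The call of ATG8b was lost after quantile normalization (limma adjusted p = 0.0686) and on leaving out replicate 2 of Col-0 without sulfate, replicate 1 of cdk8-1 with sulfate or replicate 1 of cdk8-1 without sulfate (limma adjusted p from 0.0568 to 0.0655). Of the 10 members 3 were lower in this test and 0 higher, with or without scaling, against 12.2% and 14.8% of all genes (27.0% in all), and 11.7% and 15.2% (26.9% in all) after scaling. The interaction of NBR1 was 0.09 ± 0.12 (SE, limma adjusted p = 0.618), with a 95% interval from -0.17 to 0.35. For ATG8c, ATG8d, ATG8e, ATG8f, ATG8g and ATG8i, interactions ran from -0.43 to 0.09 and none passed. The interval of ATG8e, from -0.98 to 0.11, was the widest of the 10, and it includes the value of ATG8b.

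**Figure D3:**
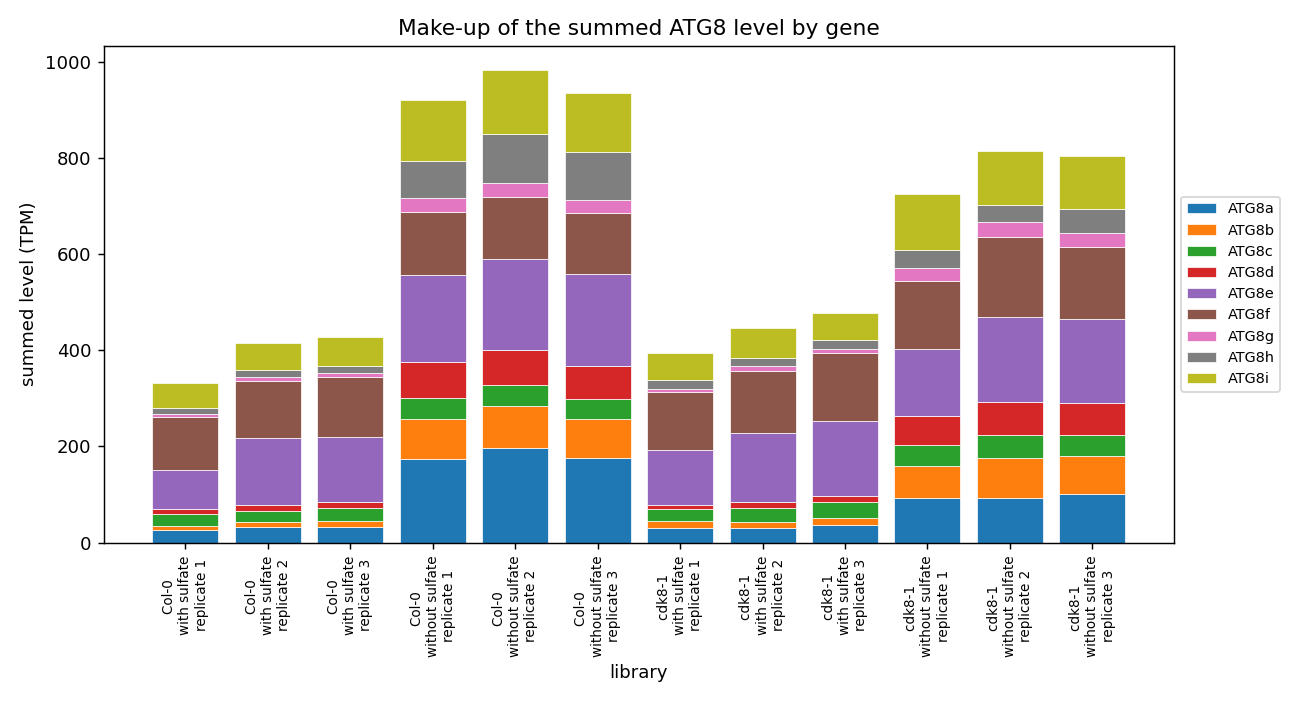
TPM of the 9 ATG8 genes stacked in each of the 12 libraries, so that bar height is the summed ATG8 level in TPM. Sums average 392 in Col-0 with sulfate, 947 in Col-0 without, 439 in cdk8-1 with sulfate and 782 in cdk8-1 without, and the ATG8a and ATG8h blocks are thinner in cdk8-1 without sulfate than in Col-0 without sulfate.

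The make-up of the ATG8 pool is free of library scaling, since each share is taken within a library. In Col-0 with sulfate, ATG8e and ATG8f together led with shares of 30.1% ± 4.83 and 30.4% ± 2.55 (SD, n = 3). Without sulfate the share of ATG8f was 13.6% ± 0.473 and that of ATG8e 19.8% ± 0.646, while ATG8a went from 7.79% ± 0.275 to 19.2% ± 0.716 and ATG8h from 3.43% ± 0.249 to 9.84% ± 1.32. ATG8a thereby moved from the fourth to the second place in the order, its range of 173 to 197 TPM overlapping that of ATG8e at 182 to 192 TPM. The share of ATG8i, 14.5% ± 1.09 with sulfate and 13.5% ± 0.348 without, differed by less than the spread with sulfate.

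The pool of cdk8-1 with sulfate resembled that of Col-0, with ATG8a at 7.31% ± 0.577 and ATG8h at 4.12% ± 0.582 (SD, n = 3). Without sulfate the genotypes' pools differed in ATG8a, at 12.2% ± 0.761 in cdk8-1, in ATG8h, at 5.15% ± 0.941, and in ATG8f, at 19.4% ± 0.915. ATG8b at 9.76% ± 0.419 and ATG8d at 8.29% ± 0.102 took up shares slightly above those of Col-0 (8.89% ± 0.233 and 7.55% ± 0.343), as did ATG8c (5.79% ± 0.298 against 4.59% ± 0.252) and ATG8g (3.87% ± 0.137 against 3.02% ± 0.225). None of these 4 genes had overlapping ranges of shares between the genotypes. Shares of a library add up to a fixed whole, so lower shares of ATG8a and ATG8h by themselves raise those of the other genes. In TPM, ATG8b, ATG8c and ATG8g overlapped between the genotypes without sulfate. ATG8d did not overlap, at 59.3 to 67.7 TPM in cdk8-1 against 68.4 to 73.1 TPM in Col-0. Its log2 difference of -0.14 ± 0.09 (SE, limma adjusted p = 0.254) did not pass, and among the alternatives it passed only by voom (limma voom adjusted p = 0.0371). In the order of levels ATG8h took the fifth place in Col-0 without sulfate and the eighth in cdk8-1 without sulfate, where its range of 34.1 to 48.8 TPM overlapped that of ATG8c at 43.0 to 48.8 TPM. ATG8f kept the second place in cdk8-1, behind ATG8e with an overlapping range.

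Summed over the 9 genes, ATG8 transcript was 392 TPM ± 51.9 in Col-0 with sulfate and 947 TPM ± 33.0 without, and 439 TPM ± 42.2 and 782 TPM ± 49.4 in cdk8-1 (SD, n = 3). After scaling, these sums were 471 and 817 in Col-0 and 501 and 644 in cdk8-1. Sums of the genotypes overlapped with sulfate (332 to 428 and 393 to 477 TPM) and did not overlap without it (921 to 984 and 725 to 815 TPM). NBR1 transcript per unit of ATG8 transcript was 0.306 ± 0.00677 in Col-0 with sulfate and 0.728 ± 0.00607 without (SD, n = 3). The same ratio was 0.289 ± 0.0194 and 0.998 ± 0.0138 in cdk8-1. The ratio without sulfate was thus higher in all 3 cdk8-1 libraries (0.988 to 1.01) than in any Col-0 library (0.723 to 0.735). No test was run on shares, sums or ratios.

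The rest of the autophagy machinery was followed through 43 genes in 6 roles, 41 of which had a mean of at least 1 TPM. In Col-0, 37 of the 41 were higher without sulfate and 0 were lower, with a median log2 change of 0.95, and after scaling 30 were higher and 4 lower. In cdk8-1 the counts were also 37 and 0, with a median of 0.71, and 25 and 4 after scaling. The members' medians of 2.17 and 1.33 lay above these, and the share of all genes that was higher was 56.1% and 56.9%, or 41.3% and 38.5% after scaling. The share that was lower was 28.8% and 24.7%, or 39.6% and 37.3% after scaling. The counts by role that follow are to be read against these shares.

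Of the kinase complex that starts autophagy, the list held ATG13a, ATG13b, ATG11 and ATG101, the ATG1 kinase genes having been left out. Of these, 4 of 4 genes were higher in both genotypes, with or without scaling. ATG101, a subunit that stabilises ATG13, was higher by 1.67 ± 0.09 in Col-0 and 1.39 ± 0.09 in cdk8-1 on the log2 scale (SE). ATG11, the scaffold of the complex, went from 22.2 TPM ± 2.98 to 59.8 TPM ± 2.52 in Col-0 and from 25.6 TPM ± 1.58 to 44.1 TPM ± 3.30 in cdk8-1 (SD, n = 3). Its interaction was -0.64 ± 0.13 (SE, limma adjusted p = 0.00377), and 13.0% of its exon bases overlap a gene on the other strand. In membrane delivery, 8 of 9 tested genes were higher in Col-0 and 9 of 9 in cdk8-1, and after scaling 8 were higher and 1 lower in Col-0 and 6 were higher in cdk8-1. The lipid-binding ATG18a was higher by 1.65 ± 0.10 and 1.20 ± 0.10 (SE), and the membrane protein ATG9 had an interaction of -0.56 ± 0.16 (SE, limma adjusted p = 0.0202).

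Of the PI3-kinase complex, which marks the forming membrane with a phosphorylated lipid, VPS38, ATG14a and ATG14b had been left out of the list. The 3 of 3 genes listed were higher in both genotypes, and after scaling 3 in Col-0 and 2 in cdk8-1. ATG6, the plant Beclin, was higher by 0.94 ± 0.08 in Col-0 and 0.59 ± 0.08 in cdk8-1 (SE), though in cdk8-1 not after scaling (limma adjusted p = 0.119). Among the enzymes that conjugate ATG8, 8 of 9 were higher in Col-0 and 9 of 9 in cdk8-1, and after scaling 5 and 6. ATG7 went from 10.0 TPM ± 0.101 to 30.9 TPM ± 1.47 in Col-0 and from 10.0 TPM ± 1.47 to 23.1 TPM ± 1.55 in cdk8-1 (SD, n = 3). Its log2 changes were 1.54 ± 0.10 and 1.13 ± 0.10 (SE), with an interaction of -0.40 ± 0.14 (SE, limma adjusted p = 0.0447). ATG3 was higher by 0.95 ± 0.07 and 0.68 ± 0.07 (SE) and ATG4b, which trims ATG8, by 0.86 ± 0.06 and 0.60 ± 0.06 (SE).

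Among the receptors and adaptors beside NBR1, 7 of 8 tested genes were higher in each genotype, and after scaling 6 were higher and 1 lower in Col-0 and 5 and 1 in cdk8-1. DSK2B, a ubiquitin receptor that binds ATG8, went from 70.9 TPM ± 4.09 to 236 TPM ± 9.40 in Col-0 and from 75.3 TPM ± 5.02 to 185 TPM ± 4.17 in cdk8-1 (SD, n = 3). The interaction of DSK2B was -0.43 ± 0.09 (SE, limma adjusted p = 0.00306), where NBR1 had 0.09 ± 0.12. FYVE1, an endosomal sorting protein with a part in autophagosome turnover, was higher by 1.38 ± 0.07 and 1.22 ± 0.07 (SE). TSPO, a receptor of this list, was below 1 TPM on average and was not tested.

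Among regulators, 7 of 8 genes were higher in Col-0 and 5 of 8 in cdk8-1, against 56.1% and 56.9% of all genes. After scaling 4 were higher and 2 lower in Col-0, against 41.3% and 39.6% of all genes. In cdk8-1 these counts were 2 and 3, against 38.5% and 37.3%. The regulators' median log2 change relative to the median gene was 0.19 in Col-0 and -0.09 in cdk8-1, close to the table as a whole. TGA9, a bZIP factor known to activate ATG8 promoters, went from 0.321 TPM ± 0.162 to 3.64 TPM ± 0.447 in Col-0 and from 1.07 TPM ± 0.350 to 6.12 TPM ± 1.55 in cdk8-1 (SD, n = 3). It was higher in cdk8-1 on either plate, by 0.64 ± 0.18 with sulfate (SE, limma adjusted p = 0.0380) and by 0.60 ± 0.18 without (SE, limma adjusted p = 0.0197). With sulfate TGA9 was near the floor in both genotypes. Its difference there did not pass by limma voom on the recovered reads (log2 difference 1.70, limma voom adjusted p = 0.0579). HY5, a bZIP factor known as a repressor of some autophagy genes in light, was at 4.89 to 7.02 TPM in Col-0 with sulfate, 14.1 to 18.8 TPM in Col-0 without, 6.97 to 8.78 TPM in cdk8-1 with sulfate and 5.86 to 9.34 TPM in cdk8-1 without. Only the Col-0 libraries without sulfate stood apart among these 4 groups, and the interaction was -1.48 ± 0.25 (SE, limma adjusted p = 0.00082). TOR, the kinase that restrains autophagy when nutrients suffice, was higher by 0.71 ± 0.08 in Col-0 and 0.62 ± 0.08 in cdk8-1 (SE), in cdk8-1 not after scaling (limma adjusted p = 0.0607).

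With sulfate, 4 of the 41 genes were higher in cdk8-1 and 0 lower (2 and 0 after scaling), against 8.85% and 4.84% of all genes. Without sulfate, 7 were higher and 12 lower (5 and 14 after scaling), against 26.3% and 15.0% of all genes. The lower genes included ATG11 (-0.43 ± 0.09), ATG9 (-0.49 ± 0.11), ATG7 (-0.41 ± 0.10) and DSK2B (-0.35 ± 0.06), all on the log2 scale with SE, and ATG13b (0.53 ± 0.10) and ATG18g (0.43 ± 0.09) were among the higher ones. Their limma adjusted p-values ran up to 0.00448. In the interaction, 11 of the 41 genes were lower and 0 higher (11 and 1 after scaling), against 12.2% and 14.8% of all genes, with a median of -0.20 for the 41 and 0.00 for all genes. Apart from HY5, none of these interactions was as large as that of ATG8a or ATG8h.

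**Figure D4:**
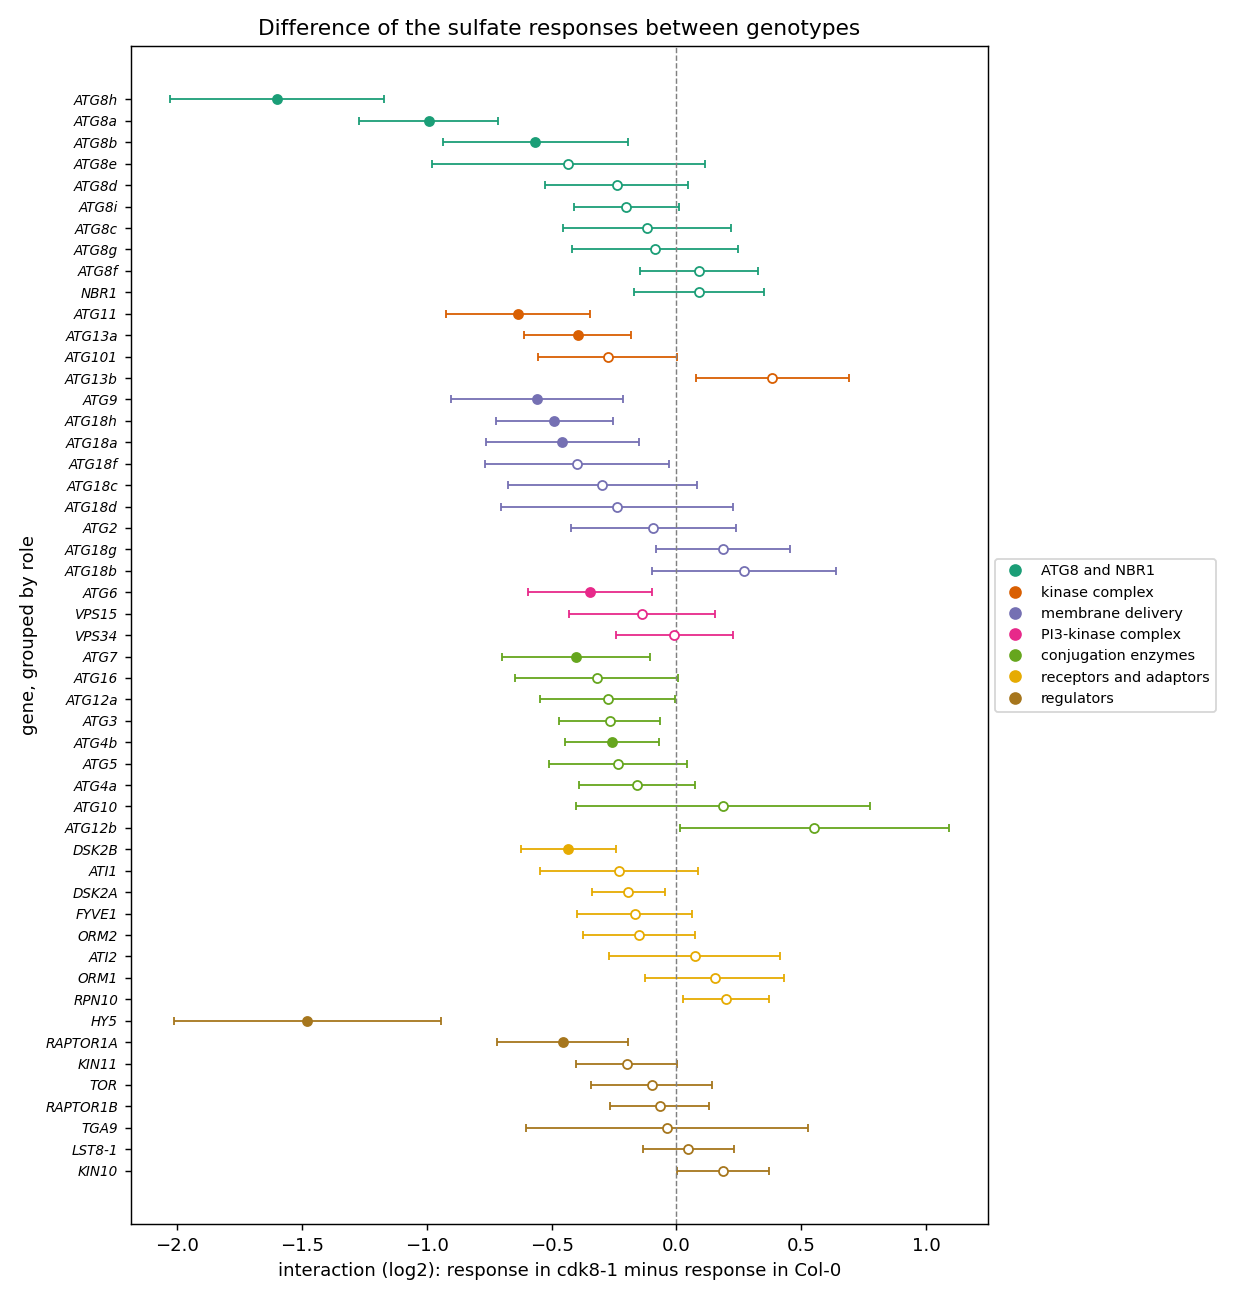
Interaction (log2 response to sulfate withdrawal, cdk8-1 value less the Col-0 value) of the 10 members and the 41 other autophagy genes tested, grouped by role, with 95% confidence intervals from limma. Filled points have an adjusted p under 0.05. The 3 filled members and all 11 filled genes of the other roles lie below 0, and ATG8h (-1.60), HY5 (-1.48) and ATG8a (-0.99) lie farthest out.

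Some markers of leaf senescence differed across the groups in the same directions as ATG8a and ATG8h. The summed TPM of SAG12, SAG13, SAG29 and SRG1 was 9.35 to 13.5 in Col-0 with sulfate and 1109 to 1232 without, and 13.2 to 26.2 and 456 to 484 in cdk8-1. SAG13, a dehydrogenase gene, led this sum with 943 TPM ± 63.6 in Col-0 without sulfate and 400 TPM ± 7.38 in cdk8-1 without sulfate (SD, n = 3). SRG1 went from 1.28 TPM ± 0.301 to 180 TPM ± 2.24 in Col-0 and from 1.52 TPM ± 0.112 to 64.2 TPM ± 7.27 in cdk8-1 (SD, n = 3). SAG29, a sugar transporter gene, did not follow in cdk8-1, with 4.95 TPM ± 2.96 and 62.9 TPM ± 4.36 in Col-0 but 10.2 TPM ± 3.93 with sulfate and 7.44 TPM ± 2.96 without in cdk8-1 (SD, n = 3). Of the 3 markers tested, 3 were higher without sulfate in Col-0 and 2 in cdk8-1, where SAG29 was lower after scaling (-0.82, limma adjusted p = 0.0352). SAG12, a protease of late senescence, was at 0 in all libraries with sulfate and averaged 0.277 TPM in Col-0 without sulfate and 0.0201 TPM in cdk8-1 without sulfate. Green-shoot markers, as given above, were lower in Col-0 without sulfate than in cdk8-1 without sulfate. The part of these marker differences in the results for ATG8a and ATG8h was not tested.

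Promoters of ATG8a and ATG8h, the genes with the largest interactions among the members, and of NBR1, whose interaction did not pass, are shown for comparison. Each is the 250 bases before the annotated gene start in RefSeq TAIR10.1, 5' to 3' on the gene's strand, at chr4:11655312-11655561 (plus) for ATG8a, chr3:1956398-1956647 (minus) for ATG8h and chr4:12740782-12741031 (plus) for NBR1. Capitals mark words found on either strand. The words searched were GAGAC, the core of the sulfur-responsive element, TTGAC, the core of the W-box, CACGTG, the G-box, and TGACG, the core bound by TGA factors.
ATG8a: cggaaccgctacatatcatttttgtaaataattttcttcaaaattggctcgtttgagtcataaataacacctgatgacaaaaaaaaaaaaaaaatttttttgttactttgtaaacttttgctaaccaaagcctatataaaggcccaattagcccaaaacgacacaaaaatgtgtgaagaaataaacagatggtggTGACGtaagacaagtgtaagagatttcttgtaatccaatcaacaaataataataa
ATG8h: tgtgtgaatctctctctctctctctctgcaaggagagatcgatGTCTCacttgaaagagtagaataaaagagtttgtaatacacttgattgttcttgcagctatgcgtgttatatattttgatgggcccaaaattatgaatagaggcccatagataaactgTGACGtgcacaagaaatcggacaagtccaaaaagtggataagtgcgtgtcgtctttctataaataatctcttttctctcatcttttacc
NBR1: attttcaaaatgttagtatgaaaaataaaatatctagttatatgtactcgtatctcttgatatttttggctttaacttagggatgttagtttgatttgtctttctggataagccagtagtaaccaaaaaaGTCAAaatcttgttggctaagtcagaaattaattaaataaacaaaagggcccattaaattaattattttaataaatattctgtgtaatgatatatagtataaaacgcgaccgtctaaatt
ATG8a and ATG8h each hold TGACG, ATG8h also holds GAGAC (as its complement GTCTC), and NBR1 holds TTGAC (as its complement GTCAA).

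Over the 10 members, TGACG was in 6 windows (ATG8a, ATG8e, ATG8f, ATG8g, ATG8h and ATG8i) and in 18.6% of 27443 windows before protein-coding genes. TTGAC was in 3 members' windows (ATG8e, ATG8i and NBR1) and 44.9% of all windows, GAGAC in 1 (ATG8h) and 25.8%, and CACGTG in 0 and 6.49%. The strong responders ATG8b and ATG8d held none of the 4 words in these bases, and ATG8f, which responded least, held TGACG at 2 places. The match of a word is a description of these letters and says nothing of binding.

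By the shape of their levels over the 12 libraries, the genes most like NBR1 were AT5G45510, ALAAT2, an alanine aminotransferase, GUS2, SGT1B, a co-chaperone of immune receptors, and SLT1. Their Pearson correlations with NBR1 on log2(TPM + 1) were 0.998 to 0.999, and 2061 tested genes reached 0.98. ALAAT2 averaged 7.69, 104, 8.25 and 106 TPM in Col-0 with and without and cdk8-1 with and without sulfate. For the summed ATG8 level the most alike were HVT1, AT4G32440, AT4G31420, ATG11 (AT4G30790) and ATSTE24 at 0.994 to 0.996, and 373 genes reached 0.98. These libraries share the strong contrast between plates, so the correlations describe the shape only.

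Reads that lie where genes overlap bear on some of these levels. In the annotation, 18.4% of the exon bases of ATG8i lie opposite AT3G15578, 2.86% of those of ATG8a opposite AT4G21990 (APR3, an enzyme of sulfate assimilation) and 3.68% of those of NBR1 opposite AT4G24700, while the other seven members have no overlap. The library kit keeps the strand, but whether the counting used it is not given in the sources used here.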

How the data were processed

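The authors deposited 1 table of TPM for 32833 loci in 12 libraries. The submitters' processing notes list the tools STAR (2.7.11b), featureCounts (2.0.8) and DESeq2 (1.46) without saying what each did, and the genome build is not given in the sources used here. Per the labels, libraries were made with a directional NEBNext kit and carry a single batch label. Of the columns, 11 sum to 1000000 and Col-0 with sulfate replicate 3 to 1004125.4. With exon lengths from RefSeq TAIR10.1, values were whole reads within 0.01 for 99.4% of those above 0, and for all 12 libraries of 25759 of 25908 genes. Intervals cover the spread of libraries, and PCR copies cannot be told from separate molecules.

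The 19127 genes that averaged 1 TPM or more were fitted by limma 3.58.1 (R 4.3.3) on log2(TPM + 1), with a trended prior, 4 group means and 5 comparisons, two-sided, Benjamini-Hochberg over all genes, threshold 0.05. A fold on this scale understates changes of low genes. The limma fit was tested on simulated data for the sulfate response in Col-0 only, with far fewer genes changed than in these libraries. The other comparisons and the alternatives were not tested that way. Alternatives were scaling by the median of ratios, quantile normalization, pseudocounts of 0.1 and 5, no minimum, a mean of at least 5 TPM, a replicate block, limma voom on the recovered reads, and leaving out each library.

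The members and lists were chosen with earlier results of these data known. Of 52 autophagy loci, 9 were left out because the reference table gave no such name (4 ATG1 genes, VPS38, ATG14a, ATG14b, C53 and SH3P2). Named were all members, CDK8 and the 5 genes most alike. From the other roles the rule picked up to 3 genes per role and comparison with the smallest adjusted p. Only a selection of these is described, and the regulators RAPTOR1A, RAPTOR1B, LST8-1 and KIN11 are among those left out. TGA9 between genotypes without sulfate lay outside that rule. HY5 outside its comparisons was chosen after its values were seen.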

Additional observations from a re-analysis of the deposited data

Results flagged for a closer look

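The response to sulfate withdrawal differed between the genotypes for 3 members by the test of the difference itself. On the log2 scale, the cdk8-1 response less the Col-0 response was -1.60 for ATG8h, -0.99 for ATG8a and -0.57 for ATG8b. The ATG8b difference did not pass after quantile normalization (limma adjusted p = 0.0686) or with any of 3 single libraries left out (limma adjusted p from 0.0568 to 0.0655). For ATG8a and ATG8h all 3 cdk8-1 libraries without sulfate lay below all 3 Col-0 libraries without sulfate, while the ATG8b libraries of the genotypes overlapped there (67.6 to 82.9 TPM against 80.8 to 88.0 TPM) and did not overlap with sulfate.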

How the results depend on the processing

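The counts of members were the same with pseudocounts of 0.1 and 5, a minimum mean of 5 TPM and the replicate block. ATG8a, ATG8d, ATG8g, ATG8h, ATG8i and NBR1, with ATG8b, stayed higher without sulfate in both genotypes under every setting run, as did the lower ATG8a and ATG8h of cdk8-1 without sulfate and their interactions. Of 400 comparisons of a member under an alternative other than a left-out library, 378 kept their call, 13 no longer passed, 3 newly passed and 6 reversed with a call in at least 1 of the fits. Of the 378, 10 that passed in neither fit changed sign (ATG8e in the response of cdk8-1, ATG8a and ATG8i between genotypes with sulfate, ATG8c between genotypes without). All 6 reversals with a call were ATG8f: its log2 response in Col-0 was -0.35 after median-of-ratios scaling, -0.29 after quantile normalization and -0.36 by voom, and in cdk8-1 -0.25, -0.080 and -0.25. These settings bring the libraries to a common middle or distribution, which TPM does not.

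In Col-0, 1 member was lower without sulfate under scaling, quantile normalization and voom, and in cdk8-1 1 under scaling and voom, where the TPM gave 0. With sulfate, the 1 member higher in cdk8-1 became 0 under scaling, quantile normalization, no minimum level and voom. Without sulfate, the 1 member higher in cdk8-1 became 0 under scaling and voom, and the 2 lower members became 4 by voom. Over all genes, voom gave 4188 higher and 3979 lower of 19006 in that comparison. With sulfate, 993 of 19127 genes were higher in cdk8-1 after quantile normalization, 1571 of 25908 with no minimum level and 778 of 19006 by voom. Genes lower without sulfate in Col-0 numbered 7228 after quantile normalization and 7546 by voom, and in cdk8-1 7095 by voom.

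With each library left out in turn, members higher without sulfate numbered 9 to 9 in Col-0 and 8 to 10 in cdk8-1. Members higher in cdk8-1 than in Col-0 numbered 0 to 2 with sulfate and 0 to 2 without. Members lower in cdk8-1 than in Col-0 numbered 2 to 3 without sulfate, and members with a lower interaction 2 to 3. Those ranges also include fits that left out a library outside the groups compared, since all libraries share one estimate of the spread. Such fits are not in the totals that follow. Of 360 member comparisons that left out a library of the groups compared, 344 kept their call, 15 no longer passed and 1 newly passed. Of the 344, 7 changed sign and passed in neither fit. The interaction of ATG8b no longer passed after quantile normalization (-0.48, limma adjusted p = 0.0686), without Col-0 without sulfate replicate 2 (-0.53, limma adjusted p = 0.0652), or without replicate 1 of either cdk8-1 group (-0.53 and -0.48, limma adjusted p = 0.0568 and 0.0655). The interaction of ATG8d passed only without cdk8-1 with sulfate replicate 1 (-0.34, limma adjusted p = 0.0456).

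Pairing by replicate number was not established: deviations of same-numbered libraries correlated at -0.00434 to 0.305, over 0.1 in 7 of 18 pairs, and 8 of 12 libraries correlated best with a library of their own number, a hint from the data and not from the design. With the replicate block, members higher without sulfate were 9 in Col-0 and 9 in cdk8-1, those higher and lower in cdk8-1 without sulfate 1 and 2, and those with a lower interaction 3, and no member's call changed. Over all genes the block moved higher and lower calls between genotypes with sulfate from 1693 and 925 to 2109 and 1111. Over CDK8, HY5 and the genes that the rule picked from the other autophagy roles, 1001 comparisons kept their call, 86 no longer passed and 4 newly passed.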
